A study of Mus musculus with 7 samples.

Results

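Expression of 10 genes that carry or read out canonical Wnt signalling inside the cell was followed in the inner cell mass (ICM) of mouse blastocysts after induction of a construct made to activate the kinase ERK. They were Ctnnb1, Gsk3b, Axin1, Axin2, Apc, Tcf7l2, Tcf7l1, Tcf7, Lef1 and Sp5. The 10 symbols were chosen by name, and each matched 1 row of a count table of 52636 genes through its Ensembl identifier. Of the 10, 8 had enough counts to be tested, and Lef1 and Sp5 did not.

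The study set embryos with the construct induced for 4 h against embryos given vehicle for the same 4 h. All embryos had the genotype Sox2Cre;CRAFR26, which pairs a Cre recombinase driven by Sox2 sequences with an inducible form of the kinase cRAF, and embryos of both groups spent 24 h in culture from embryonic day 2.5 in medium with PD173074 at 250 nM, which inhibits FGF receptors. The tamoxifen group (4 libraries, time label 4 h) received 250 nM 4-hydroxytamoxifen, and the vehicle group (3 libraries) received ethanol for 4 h and carries the time label 0 h. The construct came in 2 clones, clone 4 and clone 8. Clone 4 gave vehicle clone4_1 and clone4_2 and tamoxifen clone4_1 and clone4_2, and clone 8 gave vehicle clone8_1 and tamoxifen clone8_1 and clone8_2. Per the series text, 1 further vehicle sample was dropped at quality control, so clone 8 was left with 1 vehicle library. Each library was a pool of 10 ICMs, freed of the outer trophectoderm layer by immunosurgery, with 2 ng of RNA taken into a low-input kit. The labels do not say whether pools came from separate litters, so p-values measure only the spread between these pools. The construct was not compared with its absence, and the effect of tamoxifen itself cannot be told apart from that of the induced kinase.

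In canonical Wnt signalling, a cytoplasmic complex holds β-catenin down: Axin1 or Axin2 is the scaffold, Apc binds β-catenin, and the kinase Gsk3b marks it for destruction. When a Wnt ligand engages its receptors the complex is inhibited, and β-catenin enters the nucleus and binds the Tcf/Lef factors on DNA. In pluripotent mouse cells Tcf7l1 is known mainly as a repressor of naive pluripotency genes whose repression is relieved by β-catenin. Axin2, Sp5, Lef1 and Tcf7 are themselves widely used target genes of the pathway.

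Promoter windows of 3 of those target genes are shown, whose levels in these libraries ranged from moderate (Axin2) to near 0 (Lef1 and Sp5). Tcf7, also named above, is not shown. The sequences are from RefSeq (GRCm38.p6), run from 250 bases before to 50 bases after an annotated transcription start, and are written 5′ to 3′ on the strand of the gene. Capitals mark the letters CTTTGA or, on the other strand, TCAAAG, the core of the site that Tcf/Lef proteins are known to bind.

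Sp5, chr2:70474673-70474972, + strand: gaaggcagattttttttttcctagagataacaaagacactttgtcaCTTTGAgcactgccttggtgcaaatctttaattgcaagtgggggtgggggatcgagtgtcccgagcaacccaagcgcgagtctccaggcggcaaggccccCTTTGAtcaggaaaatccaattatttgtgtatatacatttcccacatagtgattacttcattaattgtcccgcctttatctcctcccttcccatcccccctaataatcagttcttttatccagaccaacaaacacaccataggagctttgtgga

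Axin2, chr11:108920099-108920398, + strand: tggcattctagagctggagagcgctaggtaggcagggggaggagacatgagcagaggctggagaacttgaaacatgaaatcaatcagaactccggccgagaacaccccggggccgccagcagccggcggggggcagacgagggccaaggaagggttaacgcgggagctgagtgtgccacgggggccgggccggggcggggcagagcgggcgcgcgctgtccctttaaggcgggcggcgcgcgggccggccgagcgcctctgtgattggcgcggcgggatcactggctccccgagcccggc

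Lef1, chr3:131156044-131156343, + strand, a start within the gene: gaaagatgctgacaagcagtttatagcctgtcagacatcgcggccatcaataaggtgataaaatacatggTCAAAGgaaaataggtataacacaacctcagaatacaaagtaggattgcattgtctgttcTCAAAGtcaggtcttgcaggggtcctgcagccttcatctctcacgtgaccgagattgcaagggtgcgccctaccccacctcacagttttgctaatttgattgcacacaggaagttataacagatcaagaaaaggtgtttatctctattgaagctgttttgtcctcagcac

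The Sp5 window held 2 matches, whose first bases lay 204 and 104 bases before the start. The match nearer the start extended to CTTTGAT, a longer string that contains the shorter one. The Axin2 window held none and had a GC content of 70.0%, against 45.0% for Sp5. The Lef1 window shown held 2 matches, and the other Lef1 starts in the table held none. The windows of Tcf7 held none either, so the windows shown are not a fair sample of those of the target genes. The table held 14 windows of 8 members, of which 3 windows (21.4%), 1 each of Sp5, Lef1 and Gsk3b, held CTTTGA on either strand, and 16% of all 32851 windows of the same length did. The longer CTTTGAT was in 1 of the 14 windows, that of Sp5, and in 3.73% of all windows. A match is a description of the letters in the window, and the windows say nothing about sites elsewhere in or around a gene.

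Total counts ranged from 22981498 to 42294719 per library, and 3 counts corresponded to between 0.0710 and 0.129 CPM, the count scaled to library size. The labels name no molecular identifiers, so limits from counts cover counting error only. The tissue label, epiblast at embryonic day 3.5, was compared with markers of the cell types of the blastocyst. Of 10 naive epiblast markers, 9 had over 3 counts in all libraries. Nanog was the highest of them at a mean of 544 CPM and Nr0b1 the lowest at 0.301 CPM. The 10 naive markers summed to between 1665 and 2044 CPM in the vehicle libraries and between 1708 and 2199 CPM in the tamoxifen libraries. The 9 formative markers summed to between 273 and 366 CPM with vehicle and between 194 and 265 CPM with tamoxifen, led by Dnmt3b at a mean of 166 CPM, with Zic2 lowest at 0.152 CPM. The naive sums overlapped between the groups, and the formative sums were lower in the tamoxifen libraries without overlap. Dnmt3b and Dnmt3a (mean 65.4 CPM) were the largest terms of the formative sums, with log2 differences of -0.54 and -0.39. Of the 7 tested formative markers, 4 had higher and 3 lower means, so the lower sums do not describe the list as a whole. The 10 primitive endoderm markers summed to between 845 and 1148 CPM with vehicle and between 884 and 1031 CPM with tamoxifen, led by Dab2 at 686 CPM, with Sox7 lowest at 0.146 CPM. The 10 trophectoderm markers, all with over 3 counts in all libraries, summed to between 8530 and 11228 CPM with vehicle and between 6546 and 9534 CPM with tamoxifen, led by Krt18 at 3022 CPM, with Eomes lowest at 25.4 CPM. The libraries thus held transcripts of marker genes of epiblast, primitive endoderm and trophectoderm, and trophectoderm markers summed higher than naive markers in all 7 libraries. The largest terms were Krt18 and Krt8 (2825 CPM) for trophectoderm and Dab2 for primitive endoderm. After the keratins, the trophectoderm sum was led by Gata3 (781 CPM), Elf3 (698 CPM), Id2 (567 CPM) and Cdx2 (463 CPM), so it did not rest on keratins alone. The sums therefore do not give the shares of the cell types. Vehicle clone8_1 stood apart in short transcripts: its 2741 tested genes under 1000 nt had a median log2 deviation of -1.01, against -0.012 to 0.18 in the other libraries. All 10 members have typical transcripts of at least 2100 nt, and the median deviation of the members in vehicle clone8_1 was -0.15, against -0.10 to 0.14 in the other libraries.

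The members differed widely in level. Levels are compared as CPM per kb of typical transcript length, over all 7 libraries. Gsk3b (41.9 ± 4.12, SD, n = 7), Tcf7l2 (37.9 ± 12.3) and Ctnnb1 (22.8 ± 6.29) formed the upper end, at percentiles 84.4, 83.3 and 76.7 of the tested genes. Axin1 (5.07 ± 1.08) and Axin2 (3.11 ± 0.897) lay on either side of the median tested gene, at 3.83 CPM per kb. Apc (1.56 ± 0.275), Tcf7l1 (1.46 ± 0.902) and Tcf7 (0.578 ± 0.562) lay lower, at percentiles 37.1, 36.1 and 22.5. Lef1 (0.0443 ± 0.0146) and Sp5 (0.0201 ± 0.0260) were at the limit of counting.

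Within that order the neighbours were separated to different degrees. The range over the 7 libraries did not overlap between Ctnnb1 and Axin1, a ratio of means of 4.48, between Axin1 and Axin2, a ratio of 1.63, or between Tcf7 and Lef1, a ratio of 13.0. The gap between Axin1 (lowest 4.19 CPM per kb) and Axin2 (highest 4.16 CPM per kb) was narrow and depends on the transcript length used. Tcf7l2 exceeded Ctnnb1 in 7 of 7 libraries although their ranges overlapped. Gsk3b exceeded Tcf7l2 in 5 of 7 libraries and Apc exceeded Tcf7l1 in 5 of 7, so neither pair can be ordered beyond its spread. With the longest transcript as the length instead, Tcf7l2 came first at 31.7 CPM per kb and Gsk3b second at 25.4 CPM per kb. The spread between libraries also differed among members. The highest library exceeded the lowest by 1.36-fold for Gsk3b, 1.58-fold for Apc and 1.75-fold for Axin1, and by 3.08-fold for Axin2, 4.58-fold for Tcf7l1 and 9.99-fold for Tcf7.

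**Figure D1:**
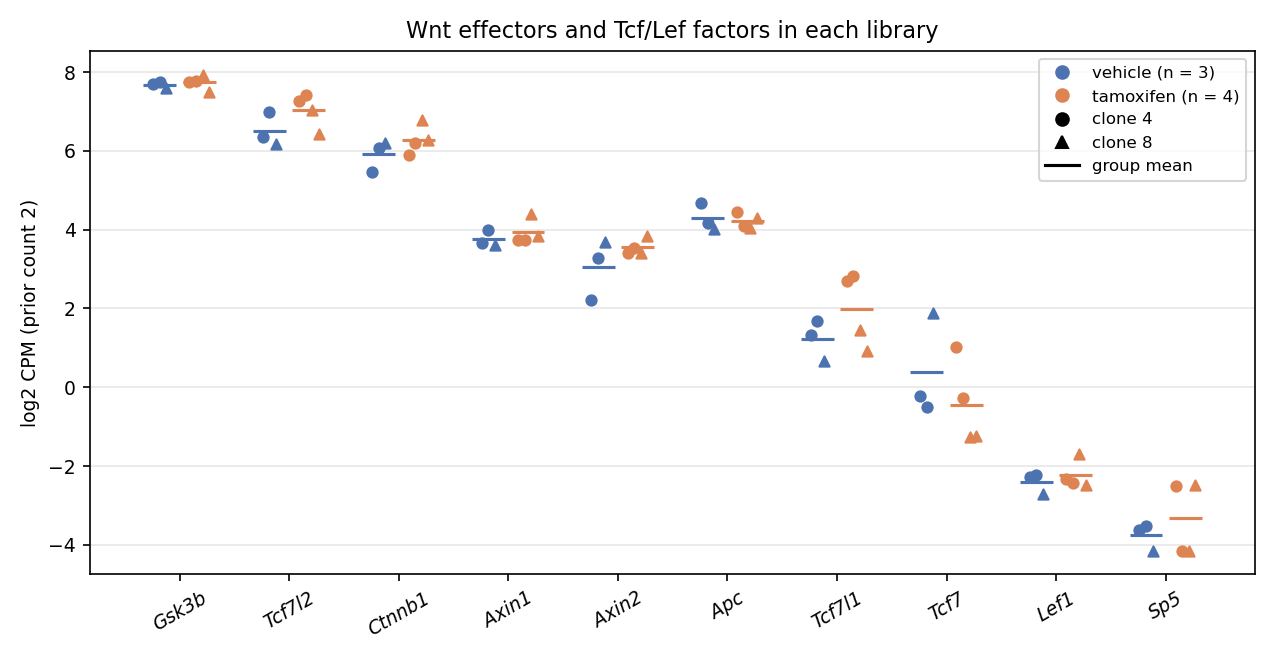
Level of the 10 members in each library, as log2 CPM with a prior count of 2, with circles for clone 4, triangles for clone 8 and a line at each group mean. Vehicle and tamoxifen libraries overlap for all 10 members, and Tcf7 in vehicle clone8_1 (3.61 CPM) stands above its other libraries.

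After 4 h of tamoxifen, no member passed the test. In the quasi-likelihood test of edgeR, with p-values adjusted over 16248 genes by the method of Benjamini and Hochberg (BH), 0 of the 8 tested members had an adjusted p under 0.05, and the background was 0% of all tested genes (0 genes, smallest adjusted p 0.794). At an unadjusted p under 0.05 the members numbered 0 of 8 as well, against 5.97% of all tested genes (970 genes). For 0 of 8 did the CPM of the 2 groups separate without overlap, against 8.45% of all tested genes. Of the 8, 6 had a higher and 2 a lower mean with tamoxifen, with a median log2 difference of 0.28 against 0.019 over all tested genes. That median was 0.13 without vehicle clone4_1 and 0.094 without tamoxifen clone8_1.

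Ctnnb1 (ENSMUSG00000006932, GRCm38 chr9:120929216-120960507, + strand) encodes β-catenin, which joins cadherins to the cytoskeleton at the membrane and serves as the co-activator of Tcf/Lef factors in the nucleus. Its vehicle libraries held 44.4, 67.8 and 72.9 CPM (clone4_1, clone4_2 and clone8_1, the order used throughout). The tamoxifen libraries held 59.0, 72.9, 109 and 77.5 CPM (clone4_1, clone4_2, clone8_1 and clone8_2). The groups overlapped, with the lowest value in vehicle clone4_1 and the highest in tamoxifen clone8_1. The means were 61.7 ± 15.2 CPM (SD, n = 3) and 79.7 ± 21.3 CPM (SD, n = 4), a fold of 1.29 with a 95% interval of 0.881 to 1.89 and an adjusted p of 0.803 (edgeR quasi-likelihood, BH-adjusted). The log2 difference of 0.37 was 0.16 without vehicle clone4_1 and 0.18 without tamoxifen clone8_1. The gene overlaps Ulk4 and 4930593C16Rik on the other strand, and since the use of strand in counting is not given in the sources used here, reads of these genes cannot be told apart.

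In the destruction complex, Gsk3b, Apc and Axin1 varied least between libraries among the 8 tested members. Gsk3b (ENSMUSG00000022812, chr16:38089001-38246084, + strand) encodes the kinase that phosphorylates β-catenin. It gave 206, 215 and 192 CPM with vehicle and 214, 219.7, 245 and 181 CPM with tamoxifen. The groups overlapped fully, with both the highest and the lowest library among the tamoxifen pools of clone 8. The log2 difference was 0.072 ± 0.16 (SE), a fold of 1.05 with a 95% interval of 0.824 to 1.34, the narrowest interval of the 8 members.

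Axin1 (ENSMUSG00000024182, chr17:26138688-26195811, + strand), the constitutive scaffold of the complex, gave 12.7, 15.9 and 12.1 CPM with vehicle. With tamoxifen it gave 13.4, 13.2, 21.2 and 14.2 CPM, so 1 library, tamoxifen clone8_1, lay above the rest while the other 6 were intermixed. The log2 difference was 0.19 ± 0.25 (SE), with an adjusted p of 0.877 in the BH-adjusted edgeR test. Without both libraries numbered clone8_1 it was -0.073.

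Apc (ENSMUSG00000005871, chr18:34220924-34322552, + strand), the tumour suppressor that brings β-catenin to the complex, gave 25.4, 18.03 and 16.1 CPM with vehicle and 21.9, 17.1, 16.5 and 19.7 CPM with tamoxifen. The vehicle libraries held both the highest and the lowest value, and the tamoxifen libraries lay between them. The log2 difference was -0.077 ± 0.23 (SE), and without vehicle clone4_1, the highest library, it was 0.13. The fold of 0.948 had a 95% interval of 0.663 to 1.36.

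Axin2 (ENSMUSG00000000142, chr11:108920349-108950783, + strand) is both a scaffold and a feedback target of the pathway, and is commonly read as its reporter. It was detected in all 7 libraries, with 185 to 583 counts. The vehicle libraries gave 4.59, 9.62 and 12.9 CPM and the tamoxifen libraries 10.6, 11.6, 10.6 and 14.2 CPM. The lowest 2 libraries were both vehicle pools of clone 4, and vehicle clone8_1 lay above 3 of the 4 tamoxifen libraries. The means were 9.03 ± 4.18 CPM (SD, n = 3) and 11.7 ± 1.67 CPM (SD, n = 4), a log2 difference of 0.38 ± 0.35 (SE) with an adjusted p of 0.836 in the BH-adjusted edgeR test. That difference was 0.043 without vehicle clone4_1 and 0.72 without vehicle clone8_1, so its size was set by single vehicle libraries. Gm11670 is annotated antisense to part of Axin2.

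Of the other target genes, Sp5 was too low to compare. Sp5 (ENSMUSG00000075304, chr2:70474923-70477729, + strand), a zinc-finger factor induced by β-catenin in many tissues, had 1, 1 and 0 counts with vehicle and 5, 0, 0 and 5 counts with tamoxifen. The libraries at 0 allow up to 0.0731 CPM in vehicle clone8_1, 0.129 CPM in tamoxifen clone4_2 and 0.108 CPM in tamoxifen clone8_1. The 2 libraries with 5 counts were both tamoxifen pools, 1 from each clone, but the other 2 tamoxifen pools had none, and no difference between the groups was detectable at this depth.

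Among the DNA-binding factors, Tcf7l2 supplied nearly all of the transcripts of its family. On the scale of CPM per kb it made up between 90.8% and 97.0% of the sum of the 4 Tcf/Lef genes in each library, with a median of 94.9%. Tcf7l1 made up 2.41% to 4.91%, Tcf7 0.392% to 6.64%, and Lef1 0.0659% to 0.171%. The order Tcf7l2, Tcf7l1, Tcf7, Lef1 held in 6 of 7 libraries, and in vehicle clone8_1 Tcf7 exceeded Tcf7l1. In a bulk library, few cells with a high level and many cells with a low one cannot be told apart, so these shares do not give the makeup of any 1 cell type.

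**Figure D2:**
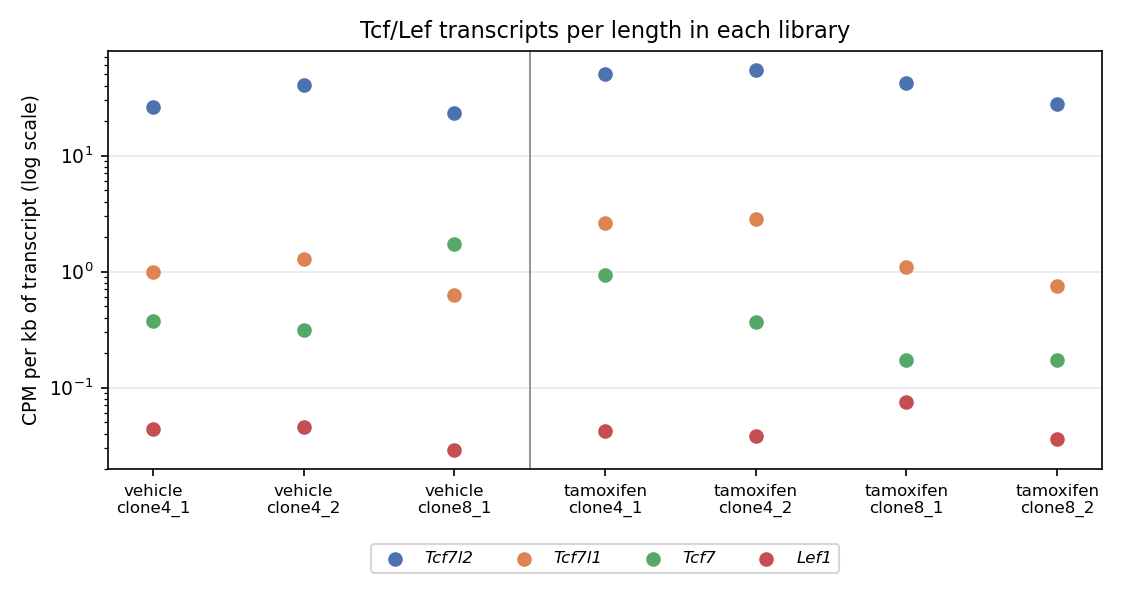
Level of Tcf7l2, Tcf7l1, Tcf7 and Lef1 in each of the 7 libraries, as CPM per kb of typical transcript length on a log axis. Tcf7l2 is highest in all 7 libraries and Lef1 lowest, with a median share of 94.9% for Tcf7l2.

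Tcf7l2 (ENSMUSG00000024985, chr19:55741820-55933654, + strand) encodes a factor that can activate or repress depending on its partners. It gave 81.9, 127 and 72.7 CPM with vehicle and 155, 170.1, 132 and 86.0 CPM with tamoxifen. The upper 3 libraries were tamoxifen pools and the lower 2 were vehicle pools, and the groups overlapped only in that vehicle clone4_2 lay above tamoxifen clone8_2. The means were 93.7 ± 28.8 CPM (SD, n = 3) and 136 ± 36.7 CPM (SD, n = 4), a log2 difference of 0.53 ± 0.27 (SE) and a fold of 1.45 with a 95% interval of 0.956 to 2.194. Its unadjusted p of 0.0749 was the smallest of the 8 members, and its adjusted p was 0.794 (edgeR quasi-likelihood, BH-adjusted). The log2 difference ranged from 0.37 without vehicle clone8_1 to 0.81 without vehicle clone4_2. It was positive under all 16 alternatives run, as were those of Ctnnb1, Tcf7l1 and Axin2. The alternatives reuse the same libraries and are not independent of each other. Ppnr overlaps Tcf7l2 on the same strand.

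Tcf7l1 (ENSMUSG00000055799, chr6:72626378-72789254, - strand), the repressor named above, gave 2.46, 3.15 and 1.53 CPM with vehicle and 6.47, 7.03, 2.67 and 1.85 CPM with tamoxifen. The 2 high libraries were the tamoxifen pools of clone 4, and the tamoxifen pools of clone 8 lay within the vehicle range. The means were 2.38 ± 0.808 CPM (SD, n = 3) and 4.50 ± 2.62 CPM (SD, n = 4), a log2 difference of 0.92 ± 0.54 (SE) with an adjusted p of 0.798 in the BH-adjusted edgeR test. The fold of 1.89 had a 95% interval of 0.819 to 4.37, and rests on 63 to 273 counts per library. The log2 difference was 0.61 without tamoxifen clone4_2 and 1.18 without tamoxifen clone8_2. Gm15401, Gm15402 and Gm38320 overlap Tcf7l1 on the other strand, and Gm37969, Gm38114 and Gm37736 overlap it on the same strand.

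Within each clone, Tcf7l2 and Tcf7l1 were higher in the tamoxifen pools than in any vehicle pool of that clone. These were 2 of the 8 tested members, against 7.34% of all tested genes (1193 genes) with that pattern. This count was chosen after the values were seen, and clone 8 enters it with 1 vehicle library. With clone as an added term in edgeR, the log2 difference was 0.62 for Tcf7l2 (unadjusted p = 0.0207) and 0.98 for Tcf7l1 (unadjusted p = 0.0326), with an adjusted p of 0.751 for both. The ratio of Tcf7l2 to Tcf7l1, per kb, was 19.1 and 19.2 in the tamoxifen libraries of clone 4 and 39.2 and 37.0 in those of clone 8. In the vehicle libraries it was 26.5 and 32.0 in clone 4 and 37.6 in clone 8.

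Tcf7 (ENSMUSG00000000782, chr11:52252371-52283014, - strand), best known as the T-cell factor TCF1, was low. It gave 0.794, 0.654 and 3.61 CPM with vehicle, from 32, 21 and 148 counts. With tamoxifen it gave 1.97, 0.776, 0.361 and 0.364 CPM, from 83, 18, 10 and 15 counts. A single vehicle library, clone8_1, was the highest and the 2 tamoxifen pools of clone 8 were the lowest, with the clone 4 libraries between them. The log2 difference was -0.95 ± 0.83 (SE) with an adjusted p of 0.830 in the BH-adjusted edgeR test, and it was 0.25 without vehicle clone8_1, so its direction rested on that library. Gm26551 overlaps Tcf7 on the same strand and A630014C17Rik on the other.

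Lef1 (ENSMUSG00000027985, chr3:131110471-131224356, + strand), a factor that appears with formative and later epiblast, had 6, 5 and 4 counts with vehicle and 6, 3, 7 and 5 counts with tamoxifen. That is 0.0975 to 0.253 CPM, spread alike over both groups, and no difference was detectable at this depth.

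The same comparison within clone 4 alone, which had 2 libraries in each condition, gave the smallest p-values of the members for Tcf7l1 and Tcf7l2. In the edgeR test refitted on these 4 libraries, Tcf7l1 differed by 1.26 ± 0.40 on the log2 scale (SE, unadjusted p = 0.0169, adjusted p = 0.557) and Tcf7l2 by 0.63 ± 0.22 (unadjusted p = 0.0251, adjusted p = 0.596). None of the 8 members was called after adjustment, against 0% of 16060 genes, and these 2 of 8 had an unadjusted p under 0.05, against 7.87% of all genes tested in clone 4. The Tcf7l2 difference depended on the vehicle libraries. It was 0.35 ± 0.17 (adjusted p = 0.360 in edgeR) without vehicle clone4_1 and 0.99 ± 0.18 (adjusted p = 0.0207 in edgeR) without vehicle clone4_2. Each of these fits has 1 vehicle library, which is assumed to vary like the 2 tamoxifen libraries, and they called 250 and 309 genes where the fit on 4 libraries called 0. With either tamoxifen library of clone 4 left out, 0 members had an unadjusted p under 0.05. Of the others, Tcf7 differed by 0.92 ± 0.78, from 0.093 without tamoxifen clone4_1 to 1.42 without tamoxifen clone4_2. Axin2 differed by 0.64 ± 0.42, from 0.20 without vehicle clone4_1 to 1.27 without vehicle clone4_2. Ctnnb1 differed by 0.23 ± 0.25, Gsk3b by 0.034 ± 0.14, Axin1 by -0.11 ± 0.28 and Apc by -0.16 ± 0.28.

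Clone 8, with 1 vehicle and 2 tamoxifen libraries, was not fitted on its own and its values are a description. The log2 ratio of mean CPM was 0.58 for Tcf7l2, 0.53 for Tcf7l1, 0.54 for Axin1 and 0.36 for Ctnnb1. It was 0.17 for Apc, 0.15 for Gsk3b, -0.057 for Axin2 and -3.002 for Tcf7. Tcf7, Axin2, Axin1 and Apc thus differed in sign between the clones. The difference itself was tested as an interaction of clone and condition in edgeR, and 0 of 8 members passed an adjusted p of 0.05, against 3.16% of all tested genes (514 genes, 510 with a higher log2 difference in clone 8 and 4 with a lower one). Clone 8 enters with vehicle clone8_1 alone, the library low in short transcripts, so the spread comes from the other 3 combinations of clone and condition. At an unadjusted p under 0.05 there was 1 of 8, against 14.8% of all tested genes. That member was Tcf7, with an interaction of -4.23 ± 1.17 on the log2 scale (SE, unadjusted p = 0.00627, adjusted p = 0.122 in edgeR), which rests on the 148 counts of vehicle clone8_1.

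**Figure D3:**
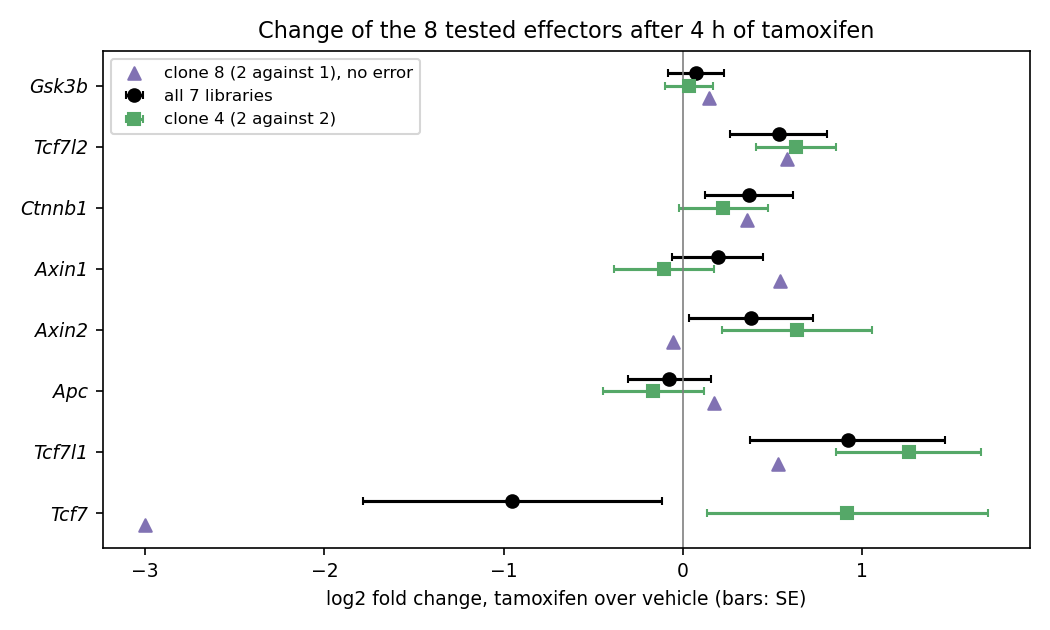
Log2 difference of tamoxifen from vehicle for the 8 tested members, in all 7 libraries and in clone 4 alone with bars of 1 SE, and in clone 8 as a ratio of means with no error because clone 8 was not fitted on its own. Tcf7l2 and Tcf7l1 lie above 0 in all 3 sets, while Tcf7 lies at 0.92 in clone 4 and at -3.002 in clone 8.

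The rest of the pathway was described from lists of 95 genes, each read from the same fit. Of the 95, 62 were tested and 0 were called after adjustment. An unadjusted p under 0.05 was found for 4 of the 62 (6.45%), all higher with tamoxifen, a share near the 5.97% of all tested genes. Medians of these lists are given with their range when each of the 7 libraries was left out in turn. The expression filter was redone in each such fit, so the genes behind a median could change. Upstream, 8 of 19 Wnt ligand genes passed the expression filter, 2 of them higher and 6 lower, with a median log2 difference of -0.28 that ranged from -0.31 to 0.40, positive without vehicle clone4_2. Both ends of that range were medians over 9 ligand genes. Wnt7b (mean 57.9 CPM) and Wnt3a (20.3 CPM) were the most abundant, with log2 differences of -0.0050 ± 0.23 and -0.47 ± 0.27 (SE). Of the 2 genes for ligand secretion, Porcn, which attaches the lipid that Wnt proteins need, was at 24.0 CPM, and Wls, their carrier to the surface, at 0.896 CPM. Porcn differed by 0.18 ± 0.27 and Wls by -1.20 ± 0.84 (SE), Wls from 6 to 86 counts per library. Their median was -0.51 (-0.70 without vehicle clone8_1 to -0.13 without vehicle clone4_2).

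Of 12 receptor genes, 8 were tested, with 5 higher and 3 lower and a median of 0.058 (-0.15 without vehicle clone8_1 to 0.12 without vehicle clone4_1). Lrp6, the co-receptor (13.7 CPM), and Fzd5 (12.4 CPM) led, with log2 differences of 0.36 ± 0.35 and 0.49 ± 0.28 (SE). Of 13 antagonists 6 were tested, 4 higher and 2 lower with a median of 0.034 (-0.23 without tamoxifen clone8_1 to 0.16 without vehicle clone4_1), led by Sfrp1 (23.7 CPM, 0.065 ± 0.30) and Kremen2 (6.005 CPM, -0.28 ± 0.41). Sfrp5, which encodes a secreted Wnt-binding protein, had 1, 2 and 1 counts with vehicle and 15, 0, 46 and 15 counts with tamoxifen. Its groups overlapped, because tamoxifen clone4_2 had no count, and its unadjusted p was 0.0248 (adjusted p 0.794 in the BH-adjusted edgeR test).

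Of 9 genes for R-spondins, their receptors and the ligases that remove Wnt receptors, 3 were tested (Lgr4, Znrf3 and Rspo3) and all 3 had higher means, Rspo3 from at most 13 counts. Their median was 0.70 (0.44 without vehicle clone4_1 to 0.86 without vehicle clone4_2). Lgr4, the R-spondin receptor that protects Wnt receptors from removal, gave 6.97, 8.75 and 5.82 CPM with vehicle and 10.8, 12.1, 13.9 and 9.95 CPM with tamoxifen. The groups did not overlap, with the tamoxifen libraries the higher, and the log2 difference was 0.70 ± 0.27 (SE, unadjusted p = 0.0248, adjusted p = 0.794, BH-adjusted edgeR test). Znrf3, a ligase that removes Frizzled receptors, was at 10.1 CPM with a log2 difference of 0.39 ± 0.30, and Rnf43, its paralog, had at most 1 count in a library.

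Beside the members, 12 of 13 transducers and destruction complex genes were tested, 6 higher and 6 lower with a median of 0.018 (-0.071 without vehicle clone4_1 to 0.087 without vehicle clone4_2). Btrc, the ubiquitin ligase subunit that recognises phosphorylated β-catenin, was at 557 CPM with a log2 difference of -0.13 ± 0.21 (SE), and the priming kinase Csnk1a1 at 304 CPM with -0.14 ± 0.16. Tnks2, a tankyrase that marks Axin proteins for destruction, gave 28.9, 32.8 and 40.4 CPM with vehicle and 41.1, 56.4, 63.3 and 41.5 CPM with tamoxifen. Its groups did not overlap, by a narrow gap between vehicle clone8_1 and tamoxifen clone4_1, and the log2 difference was 0.57 ± 0.22 (SE, unadjusted p = 0.0268, adjusted p = 0.794, BH-adjusted edgeR test).

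In the nucleus, 10 of 12 partners and corepressors were tested, 6 higher and 4 lower with a median of 0.32 (0.13 without tamoxifen clone8_1 to 0.69 without vehicle clone4_2). Ctnnbip1, a small protein that blocks the binding of β-catenin to Tcf factors, gave 8.91, 6.66 and 5.70 CPM with vehicle and 10.9, 10.3, 17.7 and 15.2 CPM with tamoxifen. The groups did not overlap, and the log2 difference of 0.93 ± 0.30 (SE) had the smallest p of the pathway lists at 0.0106 unadjusted and 0.794 adjusted (BH-adjusted edgeR test). Crebbp, an acetyltransferase co-activator (198 CPM), and Tle4, a Groucho corepressor (53.5 CPM), differed by -0.040 ± 0.15 and -0.23 ± 0.17.

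Of 12 other known target genes 7 were tested, 3 higher and 4 lower, and none had an unadjusted p under 0.05. Their median of -0.24 did not keep its sign: it was 0.44 without vehicle clone4_2, 0.10 without tamoxifen clone4_1, 0.12 with a replicate block and 0.22 with a mean count of at least 50. That last filter left 4 genes in the median. Znrf3, which is also in this list, and Ccnd1 (4.99 CPM, 0.024 ± 0.51) were the most abundant, and T, Lgr5, Notum, Rnf43 and Sp8 were too low to test. The 4 naive genes known to be repressed by Tcf7l1 were all tested, with 2 higher and 2 lower and a median of 0.13 (0.041 without vehicle clone4_1 to 0.22 without vehicle clone4_2). Klf2 differed by 0.50 ± 0.36 and Esrrb by 0.37 ± 0.18, and Nanog by -0.16 ± 0.21 and Tfcp2l1 by -0.11 ± 0.16 on the log2 scale (SE). Of the 4 genes for partners of β-catenin at adherens junctions, 1 was higher and 3 lower, with a median of -0.13 (-0.21 without tamoxifen clone4_1 to -0.066 without tamoxifen clone8_1). Cdh1, which encodes E-cadherin, was at 594 CPM and differed by -0.27 ± 0.17, and Ctnna1, which encodes α-catenin, was at 622 CPM and differed by -0.23 ± 0.16.

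**Figure D4:**
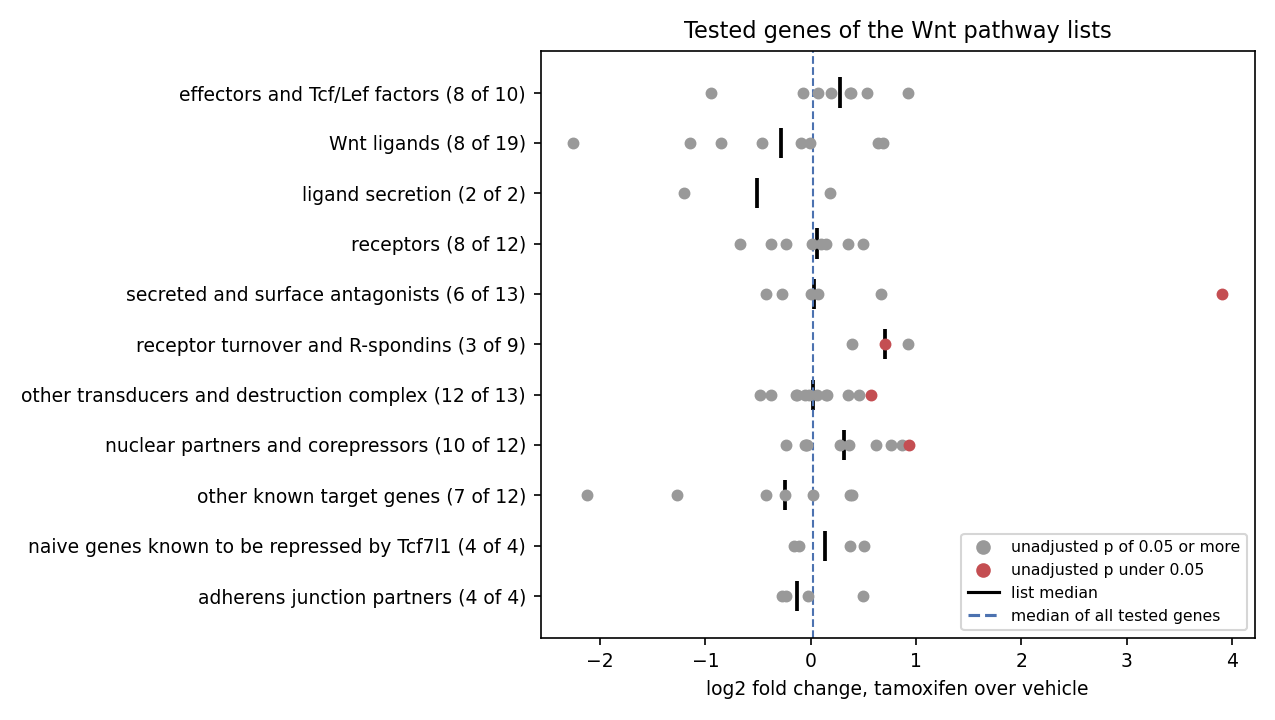
Log2 difference of tamoxifen from vehicle for each tested gene of the members and of the other pathway lists, with a bar at the list median and a dashed line at the median of all tested genes (0.019). Genes with an unadjusted p under 0.05 are in red: Ctnnbip1, Lgr4, Tnks2 and Sfrp5, 4 of 62 genes outside the members (6.45%, against 5.97% of all tested genes).

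Other cell types' transcripts varied beside these values, although no gene was called after adjustment. Over all tested genes, 5.97% had an unadjusted p under 0.05 in the edgeR test and 8.45% had groups without overlap. All 10 trophectoderm markers had lower means with tamoxifen, 3 of them with an unadjusted p under 0.05, at a median log2 difference of -0.33. Those 3 were Gata3 (-0.47 ± 0.14) and Elf3 (-0.53 ± 0.18), whose groups did not overlap, and Krt7 (-1.24 ± 0.49), whose groups did. The highest sum of the 10 trophectoderm markers, 11228 CPM, was in vehicle clone4_1, the library lowest in Ctnnb1 and Axin2. The next highest, 9534 CPM, was in tamoxifen clone8_1, the library highest in Ctnnb1 and Axin1. Of 9 tested primitive endoderm markers 6 had higher and 3 lower means, with a median of 0.49. Of these, Sox17 (2.58 ± 0.75) and Lama1 (1.35 ± 0.36) had an unadjusted p under 0.05 and groups without overlap. Of 9 tested naive markers 7 had higher and 2 lower means, with a median of 0.37. Only Klf4 (0.49 ± 0.19) of them had an unadjusted p under 0.05, and its groups overlapped. Of 7 tested formative markers 4 had higher and 3 lower means, with a median of 0.12. Only Dnmt3b (-0.54 ± 0.20) of them had an unadjusted p under 0.05, and its tamoxifen libraries were lower without overlap. The 10 feedback genes of ERK had 7 higher and 3 lower means with a median of 0.29. Of these, 1, Spry2 (0.86 ± 0.21), had an unadjusted p under 0.05 and groups without overlap. The part of the cell type makeup in the values of the members was not tested.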

How the data were processed

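Total RNA was sequenced from 7 pools of mouse ICMs. The authors deposited raw counts per Ensembl gene, 1 column per library, not normalised. Per the submitters' processing notes, bcl2fastq 2.19.1, STAR 2.5.3a and the build mm10 were used. The counting program, annotation, strand setting and treatment of duplicates are not given in the sources used here. Symbols, coordinates and lengths were matched by gene ID to GENCODE M21 (GRCm38), and 147 of 52636 IDs did not match. A typical length is the median over protein-coding transcripts of the basic set, or over its other transcripts where a gene has no protein-coding one. For a gene absent from the basic set it is the longest transcript.

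Groups came from the treatment label. The quasi-likelihood test of edgeR 4.0.16 (R 4.3.3) was run with TMM scaling, its expression filter by group and condition as the only term, and p-values were adjusted over all tested genes (Benjamini-Hochberg, threshold 0.05). The fit was tested on simulated data with the same spread assumed for all genes. The differences planted there were larger than that of any member between the groups, so differences of the members' size were not covered. Log2 CPM used a prior count of 2, and CPM used the counts of tested genes with TMM factors. Clone 8 ratios had 0.1 CPM added to each mean. Alternatives were DESeq2 1.42.0, limma-voom (limma 3.58.1), other scalings and filters, a clone term, a replicate block and leaving out libraries. Named were all members, and of each pathway list the 2 most abundant genes and any whose unadjusted p was under 0.05; of each cell type list, the most and least abundant. Klf2, Klf4, Esrrb, Dnmt3a, Krt7, Krt8, Gata3, Elf3, Id2 and Cdx2 were named after their values were seen. So were Spry2, Sox17, Lama1, Rspo3, Rnf43, T, Lgr5, Notum and Sp8. The members and lists were chosen with earlier results of these data known.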

Additional observations from a re-analysis of the deposited data

Results flagged for a closer look

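In 30 genes, the tamoxifen group of 4 libraries was searched for a library far from the others by Dixon's criterion (the gap to the nearest library over the range, 95% level), which flags about 1 in 20 groups by chance, and 2 genes were found. Axin1 was at 21.2 CPM in tamoxifen clone8_1, against 13.2, 13.4 and 14.2 CPM in the other 3, a gap of 0.881 of the range. Znrf3 was at 16.5 CPM in tamoxifen clone4_1, against 8.88, 9.25 and 10.1 CPM in the other 3, a gap of 0.837 of the range. The vehicle group of 3 libraries was not searched.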

How the results depend on the processing

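Of the member differences recomputed under other settings, 122 kept their sign and their side of the threshold and 5 changed sign. Leaving out 1 library gave Tcf7 from -1.79 to 0.25, the latter without vehicle clone8_1, and without both libraries numbered clone8_1 Tcf7 was at 0.51, Axin1 at -0.073 and Gsk3b at -0.045. Apc ranged from -0.22 to 0.13 over single omissions, the latter without vehicle clone4_1. Against 0 genes called in edgeR (970 at an unadjusted p under 0.05), DESeq2 called 4 (1217 unadjusted), limma-voom 0 (1190 unadjusted) and edgeR without both clone8_1 libraries 2, and leaving out 1 library gave 0 in each case. Members with an unadjusted p under 0.05, 0 in the fit reported, numbered 1 with no filter (Tcf7l2), 2 with a clone term (Tcf7l1 and Tcf7l2), and 0 to 2 when 1 library was left out. Same-number correlations of deviations from the group means were 0.0078, 0.021 and -0.068, and no vehicle library matched best with its own number. With so few libraries and clone not removed, these correlations cannot settle whether libraries of the same number were paired. A replicate block gave 0 genes called (721 unadjusted) and 2 members with an unadjusted p under 0.05.

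Within clone 4, 0 genes were called, against 140 in DESeq2, 217 with no filter, 2 with a mean count of at least 50, and 0 to 309 when 1 library was left out (250 without vehicle clone4_1). Members with an unadjusted p under 0.05 ranged from 0 to 4 over those omissions. Over the same omissions Ctnnb1 ranged from -0.047 (without vehicle clone4_1) to 0.57, Apc from -0.38 to 0.11 (without vehicle clone4_1) and Axin1 from -0.26 to 0.073 (without vehicle clone4_2). Interaction calls, 514, were 1023 in DESeq2, 991 with no filter, and 52 to 695 without 1 library (267 without vehicle clone4_1, 107 without tamoxifen clone4_1, 52 without tamoxifen clone4_2). The interaction could not be fitted without vehicle clone8_1. For all these shifts the cause was not tested. Depth limits Lef1 and Sp5, which stayed under the expression filter wherever one was applied. With no filter all 10 members were fitted, and with a mean count of at least 50 Tcf7 dropped out too.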
